A study of Homo sapiens with 3 samples.

Results

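A group of 10 genes that read out or restrain the RAS-ERK pathway is described here: the Sprouty genes SPRY1, SPRY2 and SPRY4, the SPRED genes SPRED1, SPRED2 and SPRED3, the ETS factor genes ETV1, ETV4 and ETV5, and EGR1. They were taken by name, as probe sets that the platform annotation gives to that gene alone, and where a gene has several probe sets the one with the highest mean was kept. All 10 genes had exactly 1 such probe set, so no choice between probe sets was made, and they are 10 of the 22395 genes named on the arrays. The samples are HEK293T cells (HEK239T in part of the labels), a long-established line of human embryonic kidney origin that expresses SV40 large T antigen. All 3 groups went through lentiviral infection and puromycin selection and were proliferating asynchronously in serum: cells with the empty pCDF1 vector, cells with pCDF1-TRAF7 wildtype and cells with pCDF1-TRAF7 G536S mutant. The labels do not say whether a line is 1 clone or a pool, nor which promoter drives the insert. Each group has 1 array, so there are no replicates, no test and no p-value, and what separates 2 arrays includes their cultures, extractions and hybridisations along with their constructs.

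ERK is the last kinase of a cascade that runs from growth factor receptors through RAS, RAF and MEK. Sprouty and SPRED proteins share a cysteine-rich domain and act as feedback inhibitors of this cascade: Sprouty proteins act near the receptor and its adaptors, and SPRED proteins bring neurofibromin, a GTPase activator that switches RAS off, to the membrane. The ETV genes encode the PEA3 group of ETS transcription factors, whose transcripts follow ERK activity closely in many cell types and are held down by the repressor CIC. EGR1 is a zinc finger immediate early gene that serum and ERK induce within minutes through serum response factor bound at CArG boxes. TRAF7, the protein that was added, is a RING-type ubiquitin ligase that ends in WD40 repeats.

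SPRY1 was the only one of the 10 genes that lay 1.5-fold or more apart in 1 or more of the 3 comparisons, and EGR1 is the member best known for a serum-driven promoter, so the promoters of these genes are shown as RefSeq gives them (assembly GRCh38.p14). Each line holds the 250 bases before an annotated start on the sense strand, with the letters of searched motifs in capitals. The SPRY1 stretch is chr4:123398136-123398385, plus strand, before the second of its 2 annotated starts; the first start lies upstream, so this stretch is inside the annotated gene. The EGR1 stretch is chr5:138465229-138465478, plus strand, before its single listed start.
SPRY1 second start: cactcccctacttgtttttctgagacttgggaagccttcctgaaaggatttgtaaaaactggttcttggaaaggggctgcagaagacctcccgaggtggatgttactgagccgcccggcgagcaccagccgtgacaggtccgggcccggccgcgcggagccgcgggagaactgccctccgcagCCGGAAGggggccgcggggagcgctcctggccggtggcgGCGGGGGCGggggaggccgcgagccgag
EGR1: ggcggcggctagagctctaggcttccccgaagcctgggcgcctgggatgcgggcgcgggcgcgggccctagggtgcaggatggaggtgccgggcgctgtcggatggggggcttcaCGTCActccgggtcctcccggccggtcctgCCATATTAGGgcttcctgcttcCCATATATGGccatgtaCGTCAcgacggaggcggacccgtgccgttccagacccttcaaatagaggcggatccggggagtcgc

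The search covered both strands. It used the CArG box (the serum response factor site), CCGGAAG (an ETS factor core), GCGGGGGCG and GCGTGGGCG (EGR sites), TGAATGAA, TGAATGGA, TCAATGAA and TCAATGGA (CIC octamers), TGACGTCA (the full cyclic AMP response element) and its short form TGACG, and TGANTCA (AP-1). TGACGTCA contains TGACG, and no other searched motif contains another. Before its second start SPRY1 held CCGGAAG at 67 to 61 bases and GCGGGGGCG at 28 to 20 bases before the start; no motif matched before its first start, at chr4:123396545-123396794. CCGGAAG was present in 8.48% and an EGR site in 5.35% of 34943 promoter stretches of the same length. EGR1 held CArG boxes at 105 to 96 and at 83 to 74 bases before its start, a motif found in 1.16% of all stretches, and TGACG on the opposite strand at 135 to 131 and 66 to 62 bases. These are matches of letters, not measured binding.

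The table of promoters held 18 stretches for 8 of the 10 genes; ETV4 and ETV5 were not searched here. SPRY2 had an EGR site and TGACG before 1 of its starts, and SPRY4 had TGACG. A CIC octamer lay before 1 start each of ETV1 and SPRED3, against 3.17% of all stretches, and the SPRED3 stretch also held TGANTCA, present in 6.59%. TGACG occurred in 6 of the 18 stretches, from 4 genes, against 21.2% of all stretches, and TGACGTCA in none of the 18 (1.63% of all). SPRED1 and SPRED2 held none of the motifs. Several of the 18 stretches overlap, since ETV1 has 6 listed starts. The TGACG before starts 3 and 4 of ETV1 is the same site on the chromosome, so the count of 6 stretches holds it more than once.

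The unit is the log2 intensity of RMA, the robust multi-array average that the authors applied. Over 53617 probe sets the medians were between 1.01 and 1.04, which is low for RMA values, and the options used are not known; how far the folds given here match folds of transcript was therefore not determined. By array, the 75th percentile was 1.73 in the empty vector array and 1.85 and 1.86 in the wild-type and G536S arrays. TRAF7, the check of the labels, read 5.66, 8.11 and 7.35 in the empty vector, wild-type and G536S arrays. The probe set may read the cell's own transcript as well as the insert. Of 9 genes listed for HEK293T cells, 7 had a mean at or above the median gene (1.21), with KRT8 and NEFM below it. None of 3 measured endothelial, 1 of 4 fibroblast and 1 of 5 leukocyte markers reached that level. The summed log2 level of the leukocyte markers ran from 4.48 to 5.38 over the 3 arrays, that of the fibroblast markers from 5.12 to 5.40 and that of the endothelial markers from 2.61 to 2.66.

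The level sets what these arrays can show. Of the 10 genes, 5 (SPRY1, SPRY2, SPRED1, SPRED2 and EGR1) had a mean at or above the median gene, and all of these lay in the third quartile of genes by mean level, from 1.21 to 2.87. SPRED2 did so by a narrow margin, with a mean of 1.214 and a wild-type value of 1.08 below the median gene. The other 5 (SPRY4, SPRED3, ETV1, ETV4 and ETV5) were below it, and none of the 10 was in the top quartile. In the lowest quartile of genes 0.0357% were at least 1.5-fold apart between the wild-type and empty vector arrays, and in the second quartile 0.107%, against 7.29% in the third. Few genes below the median reached 1.5-fold on these arrays, and a value near 0 for such a gene does not show that its transcript was unaltered. Levels of different probe sets are not compared with each other.

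**Figure D1:**
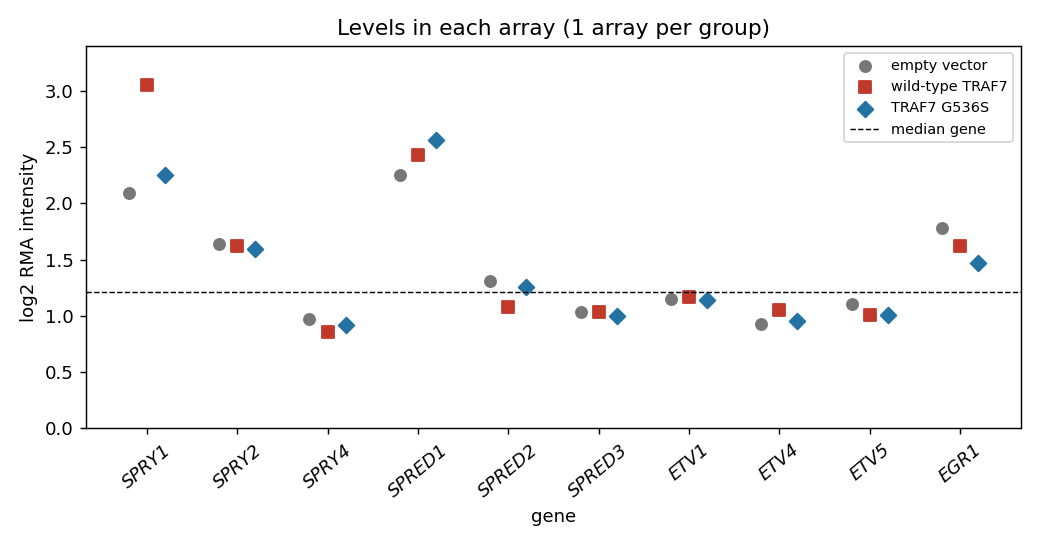
The log2 RMA intensity (vertical axis) of each of the 10 genes (horizontal axis) in the empty vector (grey circle), wild-type TRAF7 (red square) and TRAF7 G536S (blue diamond) arrays, 1 array per group; the dashed line is the median of gene means, 1.21. SPRY1 stands out by its wild-type value of 3.05 against 2.09 and 2.25, while the ETV genes lie under the dashed line in every array.

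Among the Sprouty genes, SPRY1, an inhibitor of receptor tyrosine kinase signalling, read 2.09 in cells with the empty vector, 3.05 in those with wild-type TRAF7 and 2.25 in the mutant line. The wild-type array was the high one, and the other arrays were close to each other. The difference was 0.97 on the log2 scale (1.95-fold) for wild type against the empty vector, 0.16 (1.12-fold) for G536S against the empty vector, and -0.80 for G536S against wild type, a level 1.74-fold higher with wild type. SPRY1 passed the level threshold in the empty vector array as well, so its place among the measured genes does not rest on the wild-type array. Both differences above 1.5-fold use the same wild-type array and are not separate evidence. In these bulk samples, fewer cells with the transcript and less transcript per cell cannot be told apart.

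SPRY2, the Sprouty protein that binds the ubiquitin ligase CBL, read 1.64, 1.62 and 1.59 in the same order of arrays. Its 3 values were nearly level, and its differences from the empty vector were -0.015 and -0.047. SPRY4, which is often used as a readout of ERK and FGF signalling, read 0.97, 0.86 and 0.92. These values lie in the lowest quartile of genes, where few genes reached 1.5-fold; the differences from the empty vector were -0.11 and -0.048. Neither relative was 1.5-fold apart in any comparison, and the sign of the SPRY2 difference for wild type turned with the scaling, to 0.011 after centring on the median.

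The SPRED genes stayed within 1.5-fold in all comparisons. SPRED1, the gene mutated in Legius syndrome, read 2.25 in cells with the empty vector, 2.43 in those with wild-type TRAF7 and 2.57 in the mutant line. Both construct arrays were above the empty vector array, by 0.18 and 0.32, and G536S was above wild type by 0.13. After quantile normalization the first 2 of these differences came to 0.041 and 0.17, and after cyclic loess to 0.075 and 0.20. The difference of 0.32 was the highest of the members in that comparison, and 29.9% of the genes above the median level were at least as far apart. SPRED2 read 1.31, 1.08 and 1.26, lowest with wild type, with differences from the empty vector of -0.24 and -0.057. At -0.24 it was the lowest member in the wild-type comparison, and 40.1% of genes above the median level were at least as far from 0. Its mean only just reached that level (1.214 against 1.213), through the empty vector and G536S arrays, and its wild-type value was below it. SPRED3, which lacks a functional KIT-binding domain, read 1.04, 1.03 and 1.00, below the median gene, and its differences from the empty vector were -0.0048 and -0.038.

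The ETV genes were low in every array. ETV1 read 1.15, 1.17 and 1.14. ETV4, a PEA3 factor that ERK induces in many tumours, read 0.93, 1.05 and 0.95. ETV5 read 1.10, 1.01 and 1.01. All 9 of these values were below the level of the median gene, and the widest difference among them was 0.12, for ETV4 between wild type and the empty vector. Whether any ETV transcript followed the constructs was not detectable at this signal.

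EGR1 read 1.78 in cells with the empty vector, 1.63 in those with wild-type TRAF7 and 1.47 in the mutant line. Both construct arrays were below the empty vector array, by 0.16 for wild type and 0.32 for G536S, and the G536S array was the lowest. EGR1 was the lowest member in the G536S comparison at -0.32 (1.24-fold higher in the empty vector array), and 30.0% of genes above the median level were at least as far apart there. The differences of EGR1 came to -0.27 with wild type and -0.43 with G536S after quantile normalization, still under 1.5-fold.

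**Figure D2:**
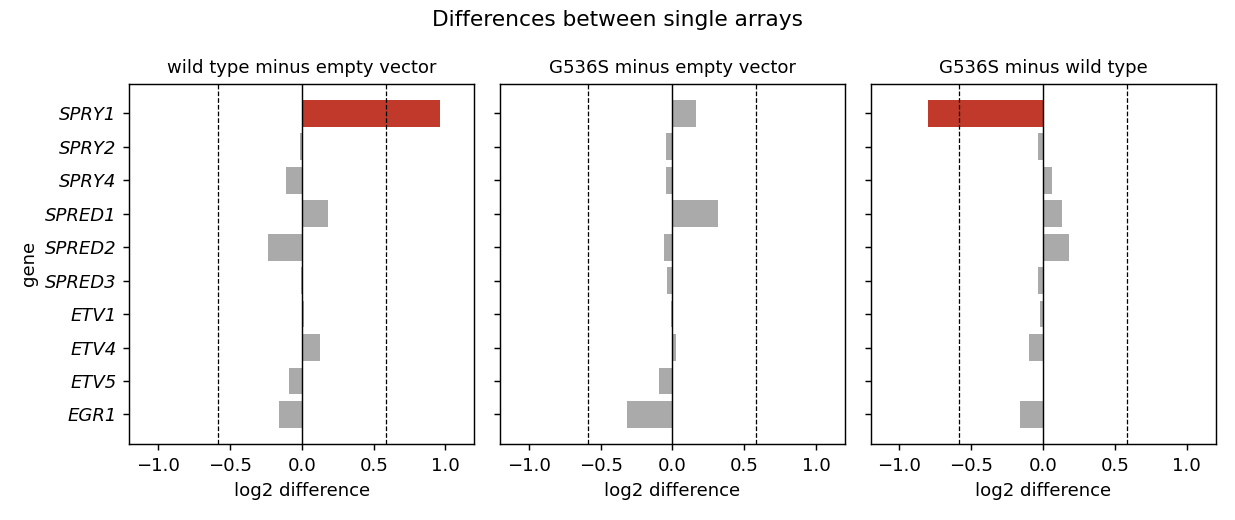
The log2 difference (horizontal axes) of each gene (vertical axis) in the 3 comparisons of single arrays; dashed lines mark 1.5-fold (0.58), and red bars lie beyond it. SPRY1 is beyond the line in the wild-type comparison (0.97) and in G536S minus wild type (-0.80), and the other 9 genes are inside it in every panel.

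For wild-type TRAF7 against the empty vector, which asks what differs when the protein is added, 1 of the 10 genes was at least 1.5-fold higher and 0 were lower. The background was 2.73% of all genes higher and 0.911% lower, or 5.42% and 1.79% of the genes at or above the median level. The median of the 10 was -0.0096, against 0.08 for genes at or above the median level and -0.00075 for all genes, and 4 of the 10 were above 0. After centring on the median that median was 0.016 and 6 of the 10 were above 0, so neither has a settled sign. With SPRY1 set aside, the other 9 genes ranged from -0.24 (SPRED2) to 0.18 (SPRED1). SPRY1 was high within its comparison: 103 of 11198 genes, itself included, had a difference at least as high.

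For G536S against the empty vector, 0 of the 10 genes were 1.5-fold higher and 0 lower, where the background was 3.05% higher and 1.07% lower of all genes (6.07% and 2.08% at or above the median level). Their median was -0.042, with a range from -0.32 (EGR1) to 0.32 (SPRED1). This comparison shares the empty vector array with the one before it.

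G536S against wild type asks what differs between the mutant and the normal protein. Here 0 of the 10 genes were 1.5-fold higher and 1, SPRY1, was lower, against 1.11% and 0.929% of all genes and 2.17% and 1.81% at or above the median level. Of 11198 genes, 61, SPRY1 included, had a difference at least as low as its -0.80. The median of the 10 was -0.027, and the 9 genes other than SPRY1 ranged from -0.16 (EGR1) to 0.18 (SPRED2). The level of TRAF7 differed between these arrays as well, by -0.76, so the mutation and the amount of TRAF7 transcript cannot be told apart.

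**Figure D3:**
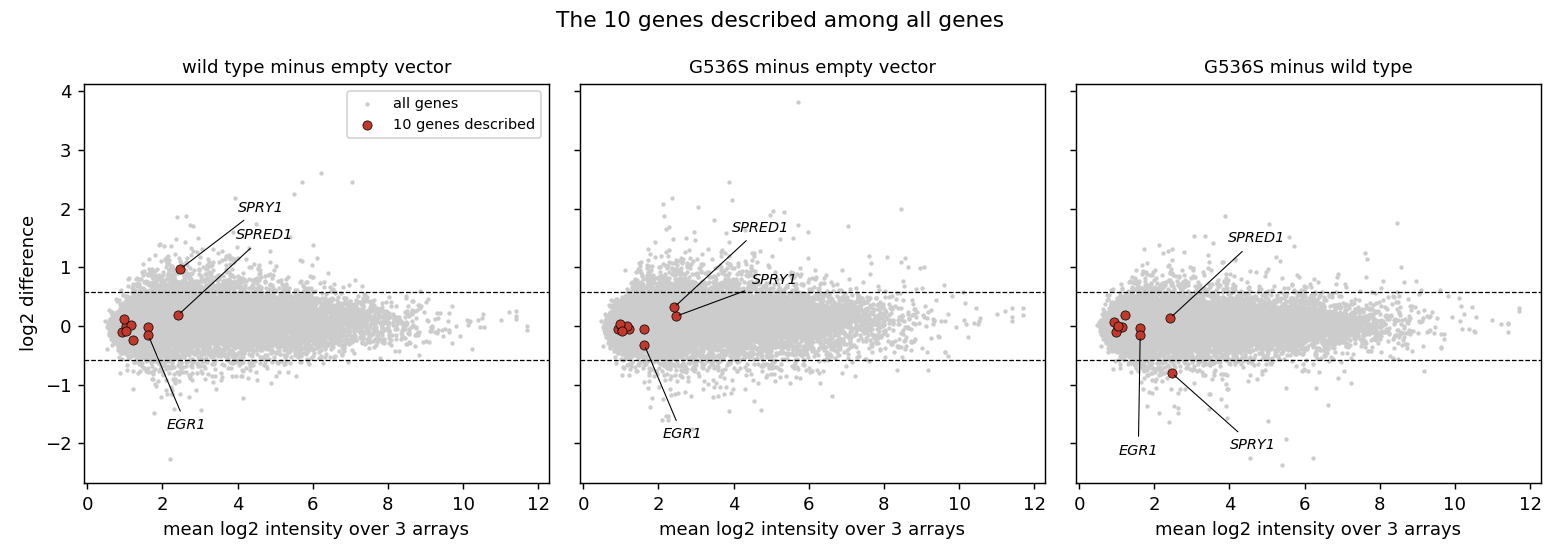
The log2 difference (vertical axes) against the mean log2 intensity over the 3 arrays (horizontal axes) for 22395 genes (grey) and the 10 genes described (red), 1 panel per comparison, with dashed lines at 1.5-fold. Most of the 10 lie at the low end of the intensity range, where the grey cloud narrows; SPRY1, at a mean of 2.46, is above the line in the first panel (0.97) and below it in the third (-0.80).

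The neighbours of SPRY1 on chromosome 4 were read to see whether the difference was shared along the chromosome. Of the 4 nearest protein-coding genes on each side, in RefSeq order, all 8 were measured, and their differences for wild type against the empty vector ran from -0.16 to 0.42. The adjacent genes were AFG2A, at 0.22, and ANKRD50, at 0.042. FGF2, a growth factor that signals through the receptors Sprouty proteins restrain, was at 0.33. FAT4, a large cadherin, had the highest difference at 0.42 and read 1.61, 2.03 and 1.51, and its difference between G536S and wild type was -0.52. None of the 8 neighbours was 1.5-fold apart in any comparison. BBS12, NUDT6 and SLC25A31 read below the median gene in every array, where few genes reached 1.5-fold, so they could hardly show a shared difference.

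In all, 8 lists of related genes were read beside the 10. Of genes at or above the median level, 7.22% were at least 1.5-fold apart between wild type and the empty vector. The share was 8.15% for G536S against the empty vector and 3.98% for G536S against wild type. At such shares, a count of 0 in a list this short says little about its genes. Of the relatives and partners of Sprouty and SPRED proteins, 8 of 10 listed genes were measured and none was 1.5-fold apart in any comparison. NF1, which encodes neurofibromin, read 6.01, 6.33 and 6.32, and SPRY3 read 1.38, 1.40 and 1.44. Of the EGR1 relatives and partners, 8 of 9 were measured and none was 1.5-fold apart. EGR3 and EGR4 had means below the median gene, where few genes reached 1.5-fold. SRF, which encodes serum response factor, read 5.62, 5.52 and 5.52. The EGR1 corepressor gene NAB2 had differences from the empty vector of -0.14 and -0.19, and the median of the list was -0.042 for wild type and -0.031 for G536S.

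Among 15 other ETS factors, 2 were at least 1.5-fold higher with wild type, 1 with G536S and 0 were lower with either. Of all genes, 2.73% were higher with wild type and 3.05% with G536S (5.42% and 6.07% at or above the median level). ELF1, an ETS factor of the ELF group, read 5.67, 6.50 and 5.75, so that, as with SPRY1, its wild-type value was above both others, by 0.83 over the empty vector and with G536S minus wild type at -0.75. ETV3, a repressor of the ETS family, read 2.97, 3.58 and 3.56 and was higher in both construct arrays, by 0.61 and 0.59; quantile normalization brought these to 0.47 and 0.43, under 1.5-fold. Of 7 genes that control the PEA3 factors, none was 1.5-fold apart. The shares of genes at or above the median level were 7.22%, 8.15% and 3.98% in the 3 comparisons. CIC, the repressor of ETV1, ETV4 and ETV5, read 2.63, 2.25 and 2.82, and COP1, a ubiquitin ligase that targets ETV proteins, read 4.52, 4.25 and 4.83. Both were lowest with wild type and just under the threshold between G536S and wild type, at 0.57 each. They were singled out after their values were seen, and the list as a whole did not follow them. Of the 7, 5 were above 0 for wild type against the empty vector, with a median of 0.074. DET1 read 3.31, 3.84 and 3.50 and ATXN1 3.85, 4.22 and 4.03, both highest with wild type.

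Upstream of ERK, 9 of 12 receptor and adaptor genes were measured, and 1, MET, the hepatocyte growth factor receptor, was 1.5-fold higher with wild type (0.61) and with G536S (0.61). Of genes at or above the median level, 5.42% and 6.07% were higher in these comparisons. MET came under the threshold after quantile normalization (0.48 and 0.46) and cyclic loess (0.50 and 0.47). Of the RAS-ERK core genes 8 of 13 were measured and none was 1.5-fold apart in any comparison, with differences between -0.30 and 0.37. Of 10 other ERK output genes, which include DUSP4, DUSP5, DUSP6, PHLDA1 and CCND1, none was 1.5-fold apart either. They were -0.034 for wild type and -0.025 for G536S. DUSP6, a phosphatase specific for ERK and a common readout of its activity, read 1.09, 1.04 and 0.97, below the median gene, and the lowest value of the list was EPHA2 at -0.47 between G536S and wild type.

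Of the immediate early genes, 15 of 16 were measured. Against the empty vector 6 of them, ATF3 and CCN1 among these, were at least 1.5-fold higher with wild type (5 after quantile normalization or cyclic loess) and 0 lower, where 5.42% and 1.79% of genes at or above the median level were higher and lower. With G536S 1 (ATF3) was higher and 2 (DUSP1 and MYC) were lower (3 lower after quantile normalization). The shares of genes at or above the median level were 6.07% higher and 2.08% lower. Between the constructs 4 were lower with G536S (5 after quantile normalization or cyclic loess) and 0 higher, against 1.81% and 2.17% of such genes. JUN, an AP-1 subunit, read 4.66, 6.91 and 4.98, and DUSP1, a MAP kinase phosphatase, 5.17, 6.70 and 4.33. KLF6, a zinc finger factor, read 3.69, 4.52 and 3.52, and FOSL1, an AP-1 subunit that ERK stabilises, 1.38, 2.29 and 1.62. All 4 were highest in the wild-type array, as 8 of the 15 were. In the empty vector array 6 of the 15 were highest, namely MYC, JUNB, IER2, IER3, FOS and FOSB, and EGR1, itself an immediate early gene, was highest there too; after quantile normalization or cyclic loess the counts were 7 and 7. FOS, the classic partner of JUN, read 0.98, 0.93 and 0.79, below the median gene. How many of all genes were highest in each array was not counted. The list was chosen with these values known, so its counts describe the arrays and support nothing further.

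**Figure D4:**
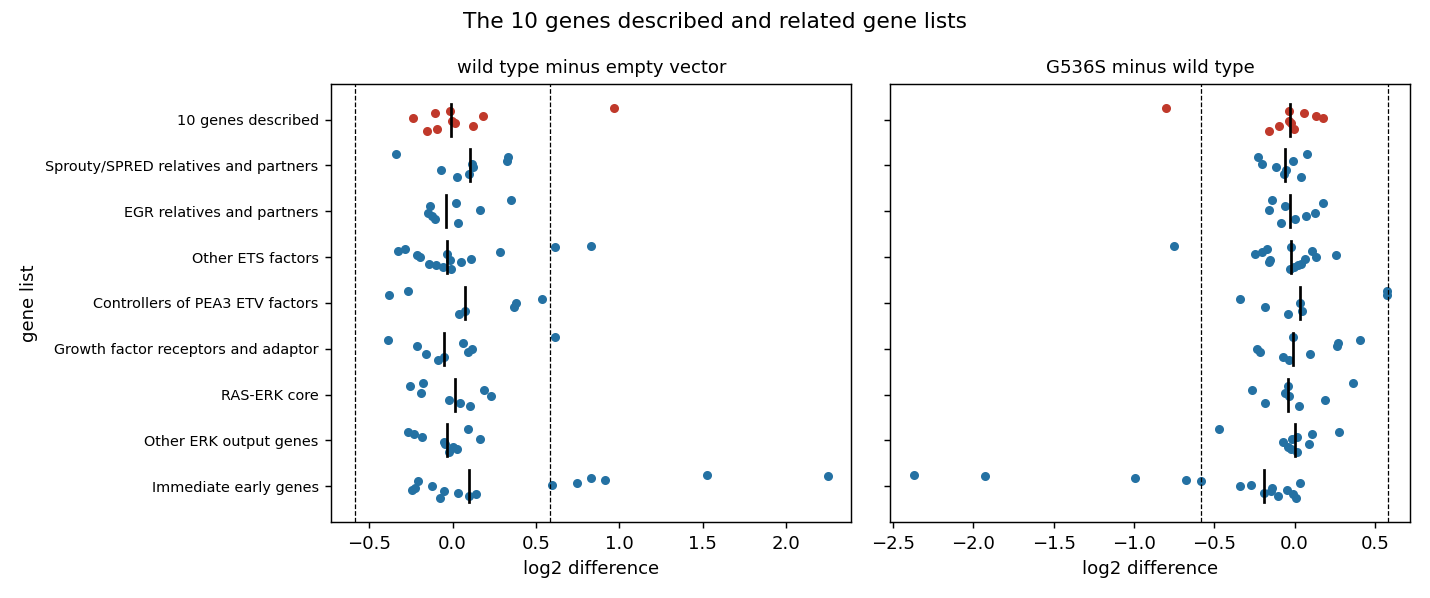
The log2 difference (horizontal axes) of each measured gene in the 10 genes described (red) and in 8 related lists (blue), with the median of each list as a black bar and dashed lines at 1.5-fold, for wild type minus empty vector (left) and G536S minus wild type (right). Immediate early genes reach 2.25 on the left and -2.37 on the right, and SPRY1 is the single red point beyond a dashed line in either panel.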

How the data were processed

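Per the labels, biotin-labelled cRNA from total RNA was hybridised to Affymetrix arrays, 1 array for each of 3 groups. The authors deposited RMA values, log2 intensities for each probe set (RMA is named in the submitters' processing notes). Its software version, and the genome build, were not given in the sources used here. RMA pulls low probe sets together, so differences near background are compressed. The log base was inferred: the highest value, 12.6, would exceed a 16-bit scanner (11.1) as a natural log.

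The annotation gives 23871 of 53617 probe sets to 1 gene; Entrez IDs were used to update symbols from RefSeq (GRCh38.p14), and the highest-mean probe set was kept for each of 22395 genes. Differences are the first group's log2 value minus the second's, and 1.5-fold (0.58) was the threshold for counting a gene as apart. Level filters used the median of gene means (1.21). The text names all 10 genes, TRAF7, and up to 4 genes of each list at least 1.5-fold apart; other genes are given for context, chosen after their values were seen. Members and lists were chosen with earlier results of these data known. Alternatives were the mean of probe sets, quantile normalization, median centring, cyclic loess, a floor at the 25th percentile (0.86), the level filter and a 2-fold threshold. Quartiles of level and chromosome neighbours were added after seeing the data. The gene-level code was tested on simulated data. Python 3.11.15, numpy 2.4.6, pandas 2.3.3, matplotlib 3.10.9, R 4.3.3 and limma 3.58.1 were used. Precision is limited by the number of arrays.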

Additional observations from a re-analysis of the deposited data

Results flagged for a closer look

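The genes below differed from the empty vector in opposite directions in the 2 construct arrays, and with 1 array per group the difference between constructs was not tested. ETV1 was at 0.014 with wild type and -0.0076 with G536S, both near 0 at a level below the median gene; after centring on the median (0.025) and cyclic loess (0.0059) its G536S difference was above 0, so the opposite direction is lost. DUSP1 was at 1.52 with wild type and -0.84 with G536S. KLF6 was at 0.83 and -0.17.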

How the results depend on the processing

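All 150 recomputed differences of the 10 genes stayed on their side of the 1.5-fold threshold under the mean of probe sets, quantile normalization, median centring, cyclic loess and the floor. The mean of probe sets could not alter them, since each gene has 1 probe set. The floor (0.863) altered differences of SPRY4 only, whose wild-type value (0.860) lay just under it. Median centring shifted all genes alike within a comparison, by at most 0.032, too little to take any of the 10 across the threshold. Much of the count of 150 was therefore fixed beforehand and is not evidence of stability. Only quantile normalization and cyclic loess could shift genes by differing, larger amounts. SPRY1 ranged from 0.83 to 0.99 for wild type minus empty vector, from 0.013 to 0.20 for G536S minus empty vector, and from -0.81 to -0.79 for G536S minus wild type. EGR1 ranged from -0.43 to -0.28 and SPRED1 from 0.17 to 0.35 for G536S minus empty vector. For wild type minus empty vector EGR1 ranged from -0.27 to -0.13 and SPRED1 from 0.041 to 0.21, and the median of the 10 genes turned from -0.0096 to 0.016 after centring on the median. With a 2-fold threshold the count of members higher with wild type became 0, and so did the count lower with G536S than with wild type. Among genes at or above the median level, the median shift per gene was -0.12 (wild type minus empty vector) under quantile normalization. For G536S minus empty vector it was -0.14. With cyclic loess these median shifts were -0.11 and -0.13. Under either, the counts of other ETS factors 1.5-fold higher became 1 for wild type and 0 for G536S, and those of receptors 0 and 0. Counting over all genes in place of those at or above the median level lowered the share 1.5-fold apart from 7.22% to 3.64% (wild type), 8.15% to 4.12% (G536S) and 3.98% to 2.04% (G536S minus wild type). No paired analysis was possible because each group has 1 array. Signal over background limits the 5 genes below the median level, and the single array per group limits every value.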
